A study of Homo sapiens with 8 samples.

Results

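The mitochondrial respiratory chain and ATP synthase were followed at the RNA level, gene by gene, in human lung fibroblasts in which MTHFD2 was knocked down and which were or were not treated with TGF-β1. The members were 97 protein-coding genes out of 60666 gene IDs, taken by name: the 13 mRNAs of the mitochondrial genome (MT-ND, MT-CYB, MT-CO and MT-ATP genes) and 84 nuclear genes for subunits of complexes I to V. Of the nuclear members, 38 belonged to complex I, 4 to complex II, 10 to complex III, 17 to complex IV and 15 to complex V. Pseudogenes and antisense genes of the same names were left out, which removed 90 of 187 candidate names. NDUFA4 is counted with complex I by its name, although it is known as a complex IV subunit. The rule itself uses names only.

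MRC5, an established line of human lung fibroblasts, was used throughout, with 4 groups of 2 libraries. They were shMTHFD2 with TGF-β1, shMock with TGF-β1, shMTHFD2 control and shMock control, where shMTHFD2 is a hairpin against MTHFD2 and shMock a control hairpin. TGF-β1 was added at 4 ng, with no volume stated in the labels, for 24 h. The labels carry the same protocol text on the control samples, and the groups follow the titles and the treatment labels. The genotype label of 3 shMTHFD2 samples names another MTHFD gene and was set aside for the sample titles. Each line stands for a single hairpin, and what separates the lines beyond MTHFD2 cannot be told apart from its loss. No label says that replicates are separate cultures, and the spread on which every p-value rests may therefore be technical. MTHFD2, a folate enzyme of the mitochondrial matrix and the target of the hairpin, stood at 93.8 and 91.9 CPM (counts relative to the scaled size of the library) in shMTHFD2 TGF-β1, against 256 and 258 CPM in shMock TGF-β1, and at 14.9 and 18.7 CPM in shMTHFD2 control, against 58.8 and 57.1 CPM in shMock control. Library totals ran from 18162738 to 22221927 counts.

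All 10 fibroblast markers examined were expressed above 1 CPM in every group, and their summed level was 52010 to 52800 CPM in shMTHFD2 TGF-β1, 49830 to 54280 in shMock TGF-β1, 30780 to 33090 in shMTHFD2 control and 33500 to 36810 in shMock control. The labels' extraction text also mentions an epithelial lung line. Of 10 epithelial markers, KRT8 (10.2 to 16.8 CPM) and KRT18 (12.97 to 21.4 CPM) averaged above 1 CPM in each group and KRT7 reached 2.12 CPM in a library. SFTPA1, SFTPC and NKX2-1 had no counts, where 3 counts, the limit that a count of 0 allows, would be 0.135 to 0.172 CPM, and EPCAM, CDH1, SFTPB and NAPSA did not exceed 0.762 CPM. The epithelial sum was 29.9 to 37.8 CPM in shMTHFD2 TGF-β1, 30.5 to 33.6 in shMock TGF-β1, 25.3 to 33.6 in shMTHFD2 control and 34.1 to 35.9 in shMock control. Sums of other cell types' markers moved with the groups. The endothelial sum, led by TEK, was 40.8 to 43.4 CPM in shMTHFD2 TGF-β1 and 43.3 to 48.9 in shMock TGF-β1, against 96.8 to 104 in shMTHFD2 control and 98.9 to 110.1 in shMock control, with PECAM1, CDH5 and CLDN5 at 0 counts. The smooth muscle and pericyte sum, led by MCAM, was 227 to 251 CPM in shMTHFD2 TGF-β1, 347.3 to 347.5 in shMock TGF-β1, 193 to 207 in shMTHFD2 control and 269.6 to 296 in shMock control, with DES at 0 counts. The leukocyte sum, nearly all of it CD68, was 47.2 to 51.1 CPM in shMTHFD2 TGF-β1, 53.5 to 58.6 in shMock TGF-β1, 74.97 to 76.4 in shMTHFD2 control and 101 to 106 in shMock control, with PTPRC at most 0.102 CPM and CD3E at 0 counts. The part of these levels in the results was not tested.

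Electrons from NADH enter the chain at complex I and those from succinate at complex II, pass through ubiquinone to complex III and through cytochrome c to complex IV, and the proton gradient built on the way drives ATP synthesis by complex V. Complexes I, III, IV and V are assembled from proteins of both genomes, whereas complex II is wholly nuclear encoded. The mitochondrial mRNAs are cut from long transcripts that run around the circular genome, while each nuclear subunit has a promoter of its own. In lung fibroblasts, TGF-β1 is known for driving the change to a contractile, matrix-producing state.

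Levels were very unequal between the genomes. On a scale of CPM per kilobase of exon, the median level over the 8 libraries was 1825 for the 7 mitochondrial mRNAs of complex I and 14.5 for its nuclear members. For complex III, MT-CYB stood at 1911 CPM per kilobase, against a median of 22.2 for the nuclear members. The 3 mitochondrial mRNAs of complex IV had a median of 8540 and its nuclear members 29.5 CPM per kilobase, and for complex V the medians were 3848 and 23.5. MT-CO1, which encodes the catalytic subunit of cytochrome c oxidase (mitochondrial chromosome, 5904 to 7445, plus strand, GRCh38), was the highest at 9183 CPM per kilobase. MT-ND6, the only member encoded on the minus strand of the mitochondrial chromosome (14149 to 14673), was the lowest of the 13 at 24.6 CPM per kilobase. Among nuclear members ATP5F1B, the catalytic β subunit of ATP synthase, was the highest at 176 CPM per kilobase. The 4 succinate dehydrogenase genes of complex II lay between 4.60 (SDHC) and 22.2 (SDHD) CPM per kilobase.

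Several nuclear subunits exist as alternative forms, and in each such pair the widely expressed form dominated in these cells. COX4I1 averaged 184 CPM over the 8 libraries, whereas its alternative COX4I2 had no counts in any library. COX6A1 averaged 76.5 CPM, and the muscle form COX6A2 had no counts. COX6B1 averaged 71.3 CPM and its testis form COX6B2 0.386 CPM. Of the COX7A group, COX7A2 averaged 38.3, COX7A2L 56.4 and the muscle form COX7A1 1.46 CPM. Per kilobase of exon, COX7A2 stood at 19.9, COX7A2L at 10.1 and COX7A1 at 1.45 CPM. COX7B and COX8A averaged 25.7 and 62.9 CPM, while COX7B2 had no counts and COX8C at most 0.103 CPM. UQCRH averaged 55.5 CPM and its near-identical retrocopy UQCRHL 3.57 CPM, which may be misassigned reads of UQCRH. COX4I2, COX6A2, COX6B2, COX7B2 and COX8C did not reach a mean of 1 CPM and were not tested, which left 13 mitochondrial and 79 nuclear members in the fits.

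The mitochondrial mRNAs moved as a block between libraries, while the summed nuclear subunits varied less. The 13 mRNAs took 3.51 and 3.63% of all counts in shMTHFD2 TGF-β1, against 4.03 and 4.21% in shMock TGF-β1. Without TGF-β1 they took 5.68 and 7.04% in shMTHFD2, against 5.001 and 3.525% in shMock. The shMTHFD2 control libraries were thus above all others, and the shMock control libraries differed from each other by more than the TGF-β1 groups did from one another. All 84 nuclear members together took 0.496 and 0.459% in shMTHFD2 TGF-β1, 0.435 and 0.432% in shMock TGF-β1, 0.536 and 0.519% in shMTHFD2 control, and 0.497 and 0.556% in shMock control. The ratio of summed mitochondrial to summed nuclear CPM averaged 7.49 ± 0.589 in shMTHFD2 TGF-β1, 9.51 ± 0.345 in shMock TGF-β1, 12.1 ± 2.10 in shMTHFD2 control and 8.20 ± 2.63 in shMock control (SD, n = 2 each). The remaining control libraries, shMTHFD2 control 1 and shMock control 1, stood at 10.6 and 10.1 on that ratio. In bulk RNA, fewer cells with a transcript and less of it per cell cannot be told apart, and a share of counts does not give copies per cell.

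**Figure D1:**
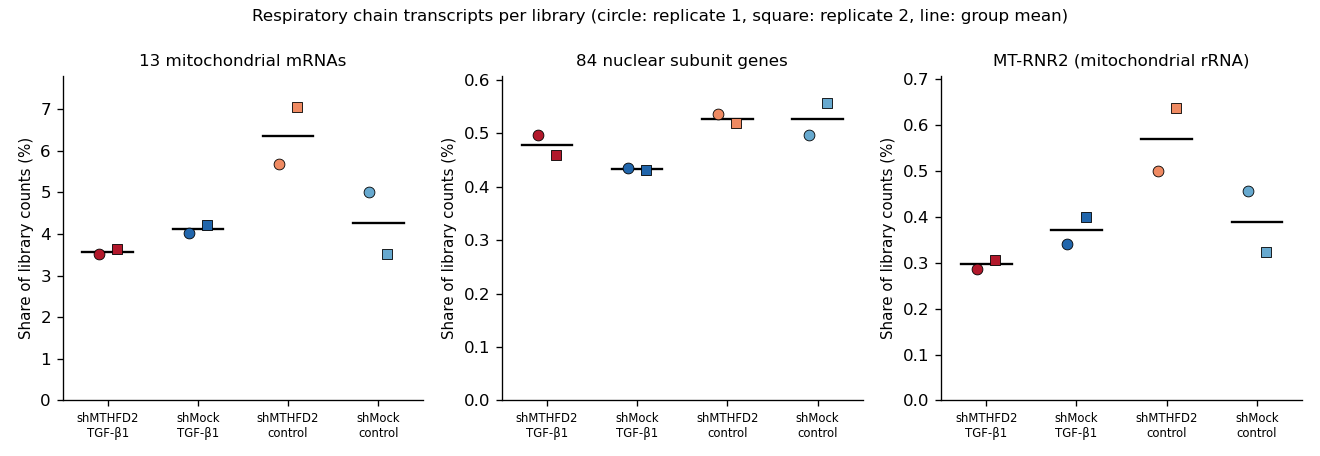
Share of all counts of a library (percent, linear axes from 0) held by the 13 mitochondrial mRNAs, the 84 nuclear subunit genes and the mitochondrial rRNA MT-RNR2; points are libraries and lines are group means of 2. The mitochondrial share is 5.68 and 7.04% in shMTHFD2 control and at most 5.001% elsewhere, and the mRNAs and MT-RNR2 follow the same order of groups.

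Library shMTHFD2 control 2 had the highest level of each of the 13 mRNAs, and library shMock control 2 the lowest level of 10 of them, the exceptions being MT-CO2, MT-CO3 and MT-ATP8. These libraries stood apart before any test, so counts and medians of the mitochondrial mRNAs are also given without them. The proportions among the 13 mRNAs were steadier than their sum. MT-CO1 made up 29.2 to 32.3% of them in the 8 libraries, MT-ND4 13.7 to 14.9%, MT-CO2 12.4 to 13.9%, and MT-CYB 4.65 to 4.93%. MT-ND6 varied most, at 0.0211 to 0.0353% of the 13. The mitochondrial ribosomal RNA MT-RNR2, a remnant in libraries made for mRNA, took 0.287 and 0.307% of counts in shMTHFD2 TGF-β1, 0.342 and 0.400% in shMock TGF-β1, 0.501 and 0.638% in shMTHFD2 control, and 0.457 and 0.324% in shMock control. Its order of group means is that of the mRNAs, and its part in the results on them was not tested. Nuclear copies of mitochondrial sequence on chromosome 1 also held counts, MTATP6P1 at 457 CPM and MTND2P28 at 370 CPM on average, so that reads of MT-ATP6 and MT-ND2 may have been assigned to them.

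**Figure D2:**
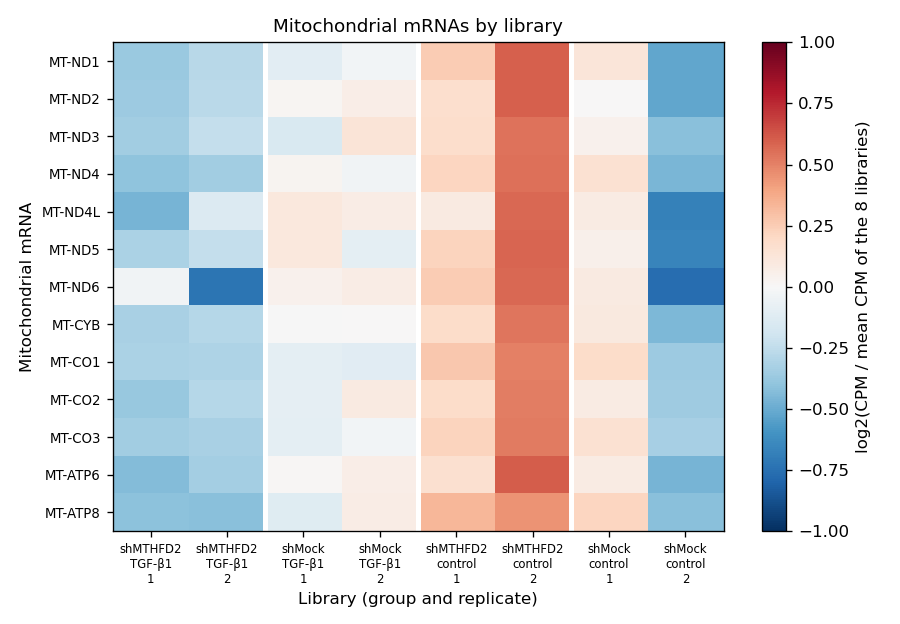
Level of each mitochondrial mRNA (rows) in each library (columns, by group and replicate) as log2 of its CPM over its mean CPM in the 8 libraries; red is above and blue below the mean. Each row is highest in shMTHFD2 control 2, and 10 of 13 rows are lowest in shMock control 2.

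With TGF-β1, shMTHFD2 was set against shMock to ask what the knockdown changes in activated fibroblasts. The 13 mitochondrial mRNAs were each lower in the knockdown, by a little and without passing the test, while 4 nuclear subunits were higher and 3 lower. Of the mitochondrial mRNAs 0 of 13 were called by edgeR's quasi-likelihood test, whose threshold is a Benjamini-Hochberg adjusted p under 0.05 over all genes, although 6 had an unadjusted p under 0.05 (DESeq2 also called 0). All 13 were below shMock in every library pair, with log2 fold changes of -0.43 to -0.21 and a median of -0.33, against a median of 0.01 over all genes tested. Of the 79 nuclear members, 8 were also below and 25 above shMock in every pair. How many of all genes separate in this way was not counted. Of all 13493 genes tested, 13.1% were called, 4.83% higher and 8.23% lower. The 4 higher nuclear members are 5.06% of the 79 tested, near the share of all genes, and the 3 lower are 3.8%, below it. The nuclear median log2 fold change was 0.07.

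MT-ATP6, the proton-channel subunit of ATP synthase, came nearest to the threshold. It measured 2599 and 2766 CPM in shMTHFD2 TGF-β1, against 3543 and 3667 CPM in shMock TGF-β1 (log2 ratio -0.43, SE 0.15, edgeR adjusted p = 0.0805). Its bicistronic partner MT-ATP8 had 395 and 393 CPM in shMTHFD2 TGF-β1, against 484 and 553 CPM in shMock TGF-β1 (-0.40, SE 0.14, edgeR adjusted p = 0.0862). The values for each pair of groups did not overlap. The number of mitochondrial mRNAs called lower moved with libraries outside this comparison, which share the estimate of the spread. It was 3 without shMock control 1, 3 without shMock control 2, and 1 each without shMTHFD2 control 1 and 2, and 8 without shMTHFD2 control 2 and shMock control 2 together. It was also 11 when genes with low counts were kept.

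The nuclear members that were higher belonged to complexes I and III. Their shMock TGF-β1 values also enter the response to TGF-β1 within shMock, so calls in both comparisons are not separate results. NDUFS7, which holds the iron-sulfur cluster that hands electrons to ubiquinone (chromosome 19, 1383527 to 1395589, plus strand, GRCh38), measured 40.9 and 40.2 CPM in shMTHFD2 TGF-β1, against 27.6 and 27.0 CPM in shMock TGF-β1. The groups were far apart, and NDUFS7 rose 1.49-fold (0.57 on the log2 scale, SE 0.13, edgeR adjusted p = 0.00912). NDUFA3, an accessory subunit, rose to 19.5 and 18.2 CPM in shMTHFD2 TGF-β1, against 13.8 and 13.9 CPM in shMock TGF-β1 (0.45, SE 0.13, edgeR adjusted p = 0.0354). NDUFV1, which binds NADH and flavin, rose to 122 and 115 CPM in shMTHFD2 TGF-β1, against 85.9 and 98.9 CPM in shMock TGF-β1 (0.36, SE 0.09, edgeR adjusted p = 0.0186). UQCRQ, a small subunit of complex III, had 51.8 and 39.6 CPM in shMTHFD2 TGF-β1, against 34.3 and 35.2 CPM in shMock TGF-β1 (0.40, SE 0.12, edgeR adjusted p = 0.0434). The groups did not overlap, although the knockdown libraries differed from each other by more than the gap between the groups. NDUFS7 overlaps antisense genes and UQCRQ overlaps GDF9 on the opposite strand, so their counts are uncertain if reads were counted without strand. Across all genes, log2 fold changes in this comparison rose with GC content (Spearman 0.329 over genes, which are not independent). With offsets for GC content and length, all 4 of these calls were lost, although the count was then 2 because other members passed. The count was 1 without shMock TGF-β1 1, 2 without shMock TGF-β1 2 and 1 without shMTHFD2 TGF-β1 1. Of the 8 fits that each left out a library, NDUFS7 kept its call in 8, NDUFV1 in 5, UQCRQ in 3 and NDUFA3 in 2. UQCRQ gave 0.18 without shMTHFD2 TGF-β1 1 on the log2 scale.

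COX7C and COX7A2, small structural subunits of complex IV, carried the largest differences between the lines among nuclear members, and they did so with and without TGF-β1. COX7C (chromosome 5, 86617904 to 86620962, plus strand, GRCh38) measured 39.8 and 33.4 CPM in shMTHFD2 TGF-β1, against 70.3 and 62.5 CPM in shMock TGF-β1. Without TGF-β1 it measured 40.9 and 35.6 CPM in shMTHFD2 control, against 73.1 and 78.7 CPM in shMock control. Every shMTHFD2 library was below every shMock library. COX7C fell by 0.86 on the log2 scale with TGF-β1 (SE 0.11, edgeR adjusted p = 0.000138) and by 0.99 without it (SE 0.11, edgeR adjusted p = 3.14e-05).

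COX7A2 (chromosome 6, 75237675 to 75250323, minus strand, GRCh38) showed the same split. It measured 31.4 and 27.7 CPM in shMTHFD2 TGF-β1, against 46.7 and 47.7 CPM in shMock TGF-β1. Without TGF-β1 it measured 28.7 and 28.99 CPM in shMTHFD2 control, against 45.1 and 50.1 CPM in shMock control. The lines did not overlap, and COX7A2 fell by 0.68 with TGF-β1 (SE 0.10, edgeR adjusted p = 0.00052) and by 0.72 without it (SE 0.10, edgeR adjusted p = 0.00031), both on the log2 scale. The interaction test, which compares the TGF-β1 response of the lines, gave 0.13 (SE 0.15, edgeR adjusted p = 0.759) for COX7C and 0.05 (SE 0.14, edgeR adjusted p = 0.924) for COX7A2. All 4 of these calls held under each of the 8 other settings tried and without any single library. An exon of COX7C overlaps the small RNA SNORD138.

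Of the other tested nuclear members of complex IV, COX8A alone was called between the lines, and without TGF-β1 only. COX7A2L, known from the joining of complexes into supercomplexes, measured 61.3 and 55.9 CPM in shMTHFD2 TGF-β1, against 56.0 and 49.8 CPM in shMock TGF-β1 (log2 ratio 0.15, SE 0.09, edgeR adjusted p = 0.324). Without TGF-β1 it measured 59.9 and 56.9 CPM in shMTHFD2 control, against 56.2 and 54.9 CPM in shMock control (0.07, SE 0.09, edgeR adjusted p = 0.676). COX4I1, the most abundant nuclear member of complex IV by CPM, gave 0.07 (SE 0.09) with TGF-β1 and -0.06 (SE 0.09) without it, neither called. COX6A1 gave -0.05 and -0.04, COX6B1 0.01 and -0.16, and COX7B -0.07 and 0.17 on the log2 scale with TGF-β1 and without it.

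**Figure D3:**
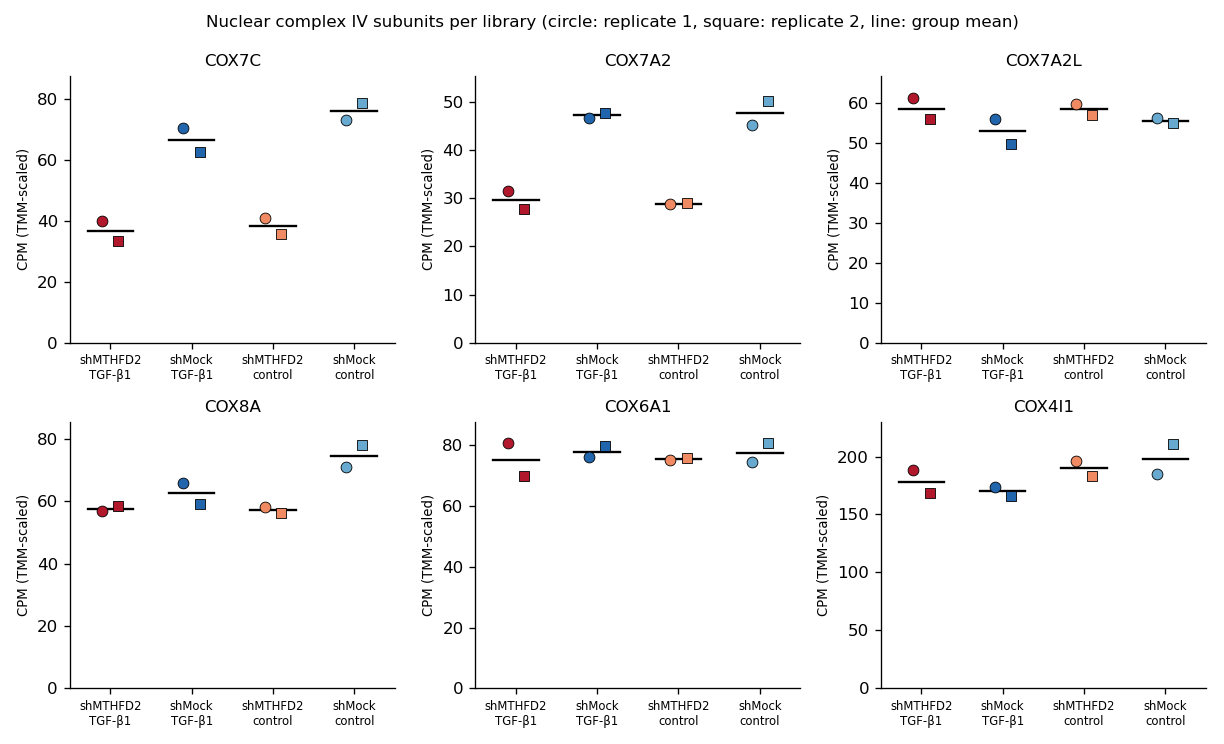
CPM of 6 nuclear complex IV subunits in each library (linear axes from 0; points are libraries, lines are means of 2). COX7C and COX7A2 lie lower in all 4 shMTHFD2 libraries than in all 4 shMock libraries. COX8A does so too, by less (means 57.5 against 62.5 CPM with TGF-β1, not called there). COX7A2L, COX6A1 and COX4I1 overlap between the lines.

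NDUFS1, the largest subunit of complex I and a carrier of iron-sulfur clusters, was the other nuclear member that fell with TGF-β1 present. It measured 88.8 and 79.2 CPM in shMTHFD2 TGF-β1, against 104 and 102 CPM in shMock TGF-β1 (log2 ratio -0.30, SE 0.09, edgeR adjusted p = 0.0371). NDUFS1 lost this call under library totals and kept it in 3 of 8 fits that each left out a library, not without either shMock control, either shMock TGF-β1 or shMTHFD2 TGF-β1 2. In complex II none was called. Its most abundant member by CPM, though not per kilobase, SDHA, gave 0.15 (SE 0.08, edgeR adjusted p = 0.255), SDHB -0.10, SDHC 0.05 and SDHD -0.02. In complex V none was called either, and ATP5F1B gave -0.02 (SE 0.08, edgeR adjusted p = 0.918).

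Without TGF-β1, the same comparison of lines asks what the knockdown changes in resting fibroblasts. Here the mitochondrial mRNAs were higher in the knockdown, opposite to the direction with TGF-β1, and the nuclear subunits were not. The test called 10 of 13 mitochondrial mRNAs higher and 0 lower, against 3.25% higher and 8.19% lower among all genes (11.4% in all). All 13 had groups that did not overlap, with log2 fold changes of 0.45 to 0.69 and a median of 0.54. Among the nuclear members, 9 also lay above and 21 below shMock in every library pair. The share of all genes that separate in this way was not counted. Of the 79 nuclear members 4 were lower and 0 higher by edgeR, where 1 had an unadjusted p under 0.05 in the upward direction and DESeq2 also called 0. Their median log2 fold change was -0.06, against -0.01 for all genes, and 0.05 without shMTHFD2 control 2 and shMock control 2.

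In complex I, MT-ND2 rose most clearly, with 2133 and 2881 CPM in shMTHFD2 control, against 1902 and 1325 CPM in shMock control (log2 ratio 0.64, SE 0.15, edgeR adjusted p = 0.0121). MT-ND5 rose by 0.68, with 2914 and 3736 CPM in shMTHFD2 control, against 2575 and 1575 CPM in shMock control. MT-ND1 followed at 0.60, with 2746 and 3488 CPM in shMTHFD2 control against 2506 and 1607 CPM in shMock control. In each case shMTHFD2 control 1 lay nearer to shMock control 1 than to shMTHFD2 control 2. MT-ND3 (0.54) and MT-ND4 (0.51) were also called. MT-ND4L gave 0.60 and MT-ND6 0.69 with larger errors (SE 0.19 and 0.25), and neither passed (edgeR adjusted p = 0.0544 and 0.0865).

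MT-CYB, the mitochondrial subunit of complex III, rose by 0.52, with 2471 and 3155 CPM in shMTHFD2 control, against 2336 and 1596 CPM in shMock control (SE 0.14, edgeR adjusted p = 0.0305). Of the complex IV mRNAs, MT-CO1 had 17030 and 20100 CPM in shMTHFD2 control, against 16110 and 10980 CPM in shMock control (0.46, SE 0.14, edgeR adjusted p = 0.0459). MT-CO2 (0.48) and MT-CO3 (0.45) were called as well. MT-ATP6 rose by 0.56 (3912 and 5333 CPM in shMTHFD2 control against 3705 and 2548 CPM in shMock control), and MT-ATP8 gave 0.46 without passing (edgeR adjusted p = 0.0525).

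These calls rest on a few libraries and on the test. Without shMTHFD2 control 2 the count was 0, and without shMock control 2 it was also 0. DESeq2 called 0 of the 13 as well. With both of those libraries left out, a setting chosen after seeing the data, the median log2 fold change of the 13 was 0.11 and none was called.

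Nuclear members that fell without TGF-β1 were COX7C and COX7A2, described above, with COX8A and ATP5F1E. COX8A, the widely expressed form of a small complex IV subunit, measured 58.2 and 56.1 CPM in shMTHFD2 control, against 71.0 and 78.1 CPM in shMock control (log2 ratio -0.38, SE 0.09, edgeR adjusted p = 0.0107). ATP5F1E, the ε subunit in the central stalk of ATP synthase, had 107 and 115 CPM in shMTHFD2 control, against 125 and 146 CPM in shMock control (-0.29, SE 0.09, edgeR adjusted p = 0.0476). The groups did not overlap for either gene. COX8A lost its call without shMTHFD2 control 2 or shMock control 2. ATP5F1E kept its call under 3 of 8 other settings and without shMock control 1, but lost it without any other library, and it overlaps TUBB1 on the opposite strand. The count of 4 was 2 without shMTHFD2 control 2 or without shMock control 2. No nuclear member of complexes I, II or III was called. NDUFV1, the most abundant nuclear member of complex I by CPM, gave 0.10 (SE 0.09). SDHA gave -0.06 (SE 0.08), SDHB -0.09, SDHC -0.02 and SDHD 0.11. UQCRC1, a core protein of complex III, gave -0.23 (SE 0.08, edgeR adjusted p = 0.09).

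**Figure D4:**
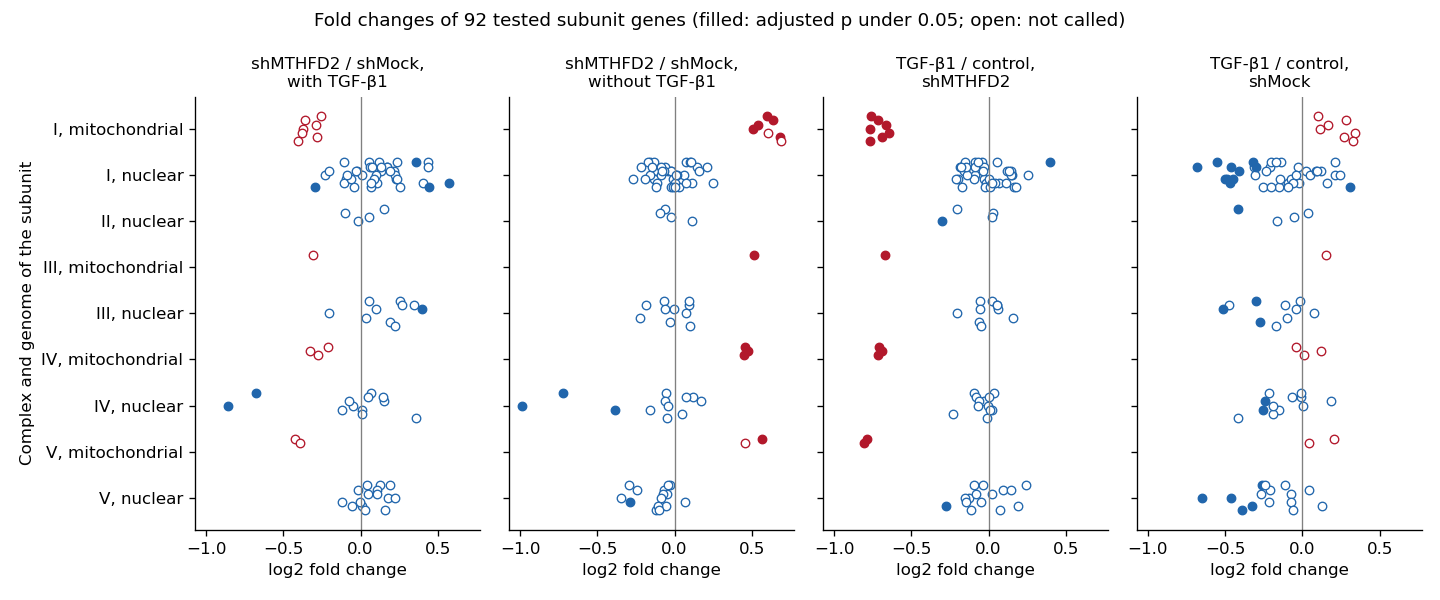
log2 fold changes (linear axis) of the 92 tested members by complex and genome in 4 comparisons; red is mitochondrial, blue nuclear, filled points passed the edgeR test and vertical scatter within a row carries no meaning. Between the lines, the mitochondrial mRNAs lie left of 0 with TGF-β1 (-0.43 to -0.21) and right of 0 without it (0.45 to 0.69), while the nuclear medians are 0.07 and -0.06.

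The same distance between genomes was read complex by complex. With TGF-β1, the mitochondrial minus the nuclear median was -0.46 in complex I, -0.51 in complex III, -0.29 in complex IV and -0.46 in complex V. Without TGF-β1 it was 0.63, 0.53, 0.51 and 0.60 in complexes I, III, IV and V. Without shMTHFD2 control 2 and shMock control 2, the values without TGF-β1 were 0.07, 0.02, 0.04 and 0.13. Those with TGF-β1 do not use these libraries and could change only by scaling, so their -0.46, -0.51, -0.29 and -0.46 are no check on them. All members share their libraries, and the mitochondrial mRNAs share precursor transcripts, so these medians are descriptions and were not tested.

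The response to TGF-β1 was then read within each line, where the treated libraries are set against controls. In shMTHFD2 cells, all 13 mitochondrial mRNAs were lower with TGF-β1, and the nuclear subunits had a median near 0. The test called 13 of 13 mitochondrial mRNAs lower, against 11% of all genes lower and 12.8% higher (23.8% in all). Their log2 fold changes ran from -0.81 to -0.65 with a median of -0.72, and the groups did not overlap for any of the 13. Groups also did not overlap for 11 higher and 19 lower nuclear members, and the share of all genes was not counted. Of the 79 nuclear members 1 was higher and 2 were lower, with a median of -0.03, against -0.01 for all genes.

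MT-ATP8 had 395 and 393 CPM in shMTHFD2 TGF-β1, against 661 and 720 CPM in shMTHFD2 control (log2 ratio -0.81, SE 0.14, edgeR adjusted p = 0.000591), and MT-ATP6 fell by 0.79. MT-CO3 fell to 3880 and 3948 CPM in shMTHFD2 TGF-β1, against 5790 and 7084 CPM in shMTHFD2 control (-0.72, SE 0.13, edgeR adjusted p = 0.00077). MT-CO1 had 11350 and 11410 CPM in shMTHFD2 TGF-β1, against 17030 and 20100 CPM in shMTHFD2 control (-0.71, SE 0.14, edgeR adjusted p = 0.00131). Replicates with TGF-β1 were close to each other, and the control replicates were further apart. MT-CO2 fell by 0.69, MT-CYB by 0.67, MT-ND1 by 0.76, MT-ND2 by 0.72, MT-ND3 by 0.66, MT-ND4 by 0.77 and MT-ND5 by 0.69 on the log2 scale. MT-ND4L (500 and 625 CPM in shMTHFD2 TGF-β1 against 734 and 1025 CPM in shMTHFD2 control) and MT-ND6 (12.6 and 7.78 CPM in shMTHFD2 TGF-β1 against 15.4 and 19.2 CPM in shMTHFD2 control) fell by 0.65 and 0.77 with the weakest support (edgeR adjusted p = 0.0218 and 0.0353). The number called was 10 to 13 when any library was left out, 11 with DESeq2, and 12 without shMTHFD2 control 2 and shMock control 2, where the median was -0.55. MT-RNR2 fell by 0.83 (SE 0.15, edgeR adjusted p = 0.000653) and MT-RNR1 by 0.78 beside the mRNAs.

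NDUFA4, known to sit in complex IV, was the single nuclear member that rose in shMTHFD2 cells. It measured 65.4 and 60.1 CPM in shMTHFD2 TGF-β1, against 46.1 and 49.3 CPM in shMTHFD2 control (log2 ratio 0.40, SE 0.11, edgeR adjusted p = 0.013). SDHD, a membrane anchor of complex II, measured 59.9 and 55.3 CPM in shMTHFD2 TGF-β1, against 68.8 and 72.9 CPM in shMTHFD2 control (-0.30, SE 0.09, edgeR adjusted p = 0.0214). ATP5PD, subunit d of the peripheral stalk of ATP synthase, had 70.9 and 62.6 CPM in shMTHFD2 TGF-β1, against 80.1 and 81.5 CPM in shMTHFD2 control (-0.28, SE 0.09, edgeR adjusted p = 0.0347). The treated and control values did not overlap for any of the 3. NDUFA4 was not called without shMTHFD2 TGF-β1 1 or shMTHFD2 control 1, SDHD without shMTHFD2 control 2 or shMTHFD2 TGF-β1 2, and ATP5PD without shMTHFD2 control 1, shMTHFD2 control 2 or shMTHFD2 TGF-β1 2. No nuclear member of complexes III and IV was called, with UQCRC1 at 0.16 (SE 0.08) and COX4I1 at -0.09 (SE 0.09).

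In shMock cells the pattern was the other way round: the mitochondrial mRNAs did not pass the test, and many nuclear subunits were lower with TGF-β1. None of the 13 mitochondrial mRNAs was called by edgeR, 0 had an unadjusted p under 0.05, and DESeq2 called 0. Their log2 fold changes ran from -0.04 (MT-CO1) to 0.34 (MT-ND4L) with a median of 0.15. MT-ND4 had 6554 and 6253 CPM in shMock TGF-β1, against 7151 and 4682 CPM in shMock control, and the treated values lay between the control values. Without shMock control 1, 10 of 13 were called higher, and without shMock control 2 and shMTHFD2 control 2 the median was -0.06. Of the 79 nuclear members 21 were lower and 1 higher, that is 26.6% lower, against 18.1% of all genes lower and 17.3% higher (35.4% in all). The nuclear median was -0.17, against -0.02 for all genes.

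The lower members were spread over all 5 complexes, with 10 in complex I, 1 in complex II, 3 in complex III, 2 in complex IV and 5 in complex V. In complex I, NDUFB7, an accessory subunit, measured 25.8 and 25.7 CPM in shMock TGF-β1, against 40.7 and 41.96 CPM in shMock control (log2 ratio -0.68, SE 0.15, edgeR adjusted p = 0.00203). NDUFB6, another accessory subunit, had 16.2 and 13.1 CPM in shMock TGF-β1, against 20.9 and 22.1 CPM in shMock control (-0.55, SE 0.14, edgeR adjusted p = 0.00656). Both fell clear of their controls. The other members of complex I that fell were NDUFS6 (-0.50), NDUFC1 (-0.49), NDUFS7 (-0.47), NDUFV2 (-0.46), NDUFA13 (-0.45), NDUFA11 (-0.41), NDUFV1 (-0.32) and NDUFS3 (-0.30). NDUFS1 was the only member of complex I, and the only nuclear member, that was higher, with 104 and 102 CPM in shMock TGF-β1, against 84.9 and 81.8 CPM in shMock control (0.31, SE 0.09, edgeR adjusted p = 0.0124). NDUFC1 shares exon sequence with MGARP on the same strand, and NDUFS1 overlaps an antisense gene.

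SDHA, the flavoprotein of succinate dehydrogenase, carried the change in complex II. It measured 77.2 and 75.6 CPM in shMock TGF-β1, against 102 and 102 CPM in shMock control (log2 ratio -0.42, SE 0.08, edgeR adjusted p = 0.00106), a fall of 1.34-fold. The iron-sulfur subunit SDHB (0.03), and the membrane anchors SDHC (-0.06) and SDHD (-0.17), were not called. In complex III, UQCRQ had 34.3 and 35.2 CPM in shMock TGF-β1, against 50.2 and 49.1 CPM in shMock control (-0.52, SE 0.12, edgeR adjusted p = 0.00352). CYC1, which encodes cytochrome c1, fell by 0.30 and the core protein UQCRC2 by 0.28 on the log2 scale.

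In complex IV, COX8A had 65.8 and 59.2 CPM in shMock TGF-β1, against 71.0 and 78.1 CPM in shMock control (log2 ratio -0.25, SE 0.09, edgeR adjusted p = 0.0352), and COX5B fell by 0.24 (SE 0.09, edgeR adjusted p = 0.0478). COX5B kept its call under 1 of 8 other settings and COX8A under 3. In complex V, ATP5F1D, the δ subunit of the central stalk, had 33.9 and 33.2 CPM in shMock TGF-β1, against 51.8 and 53.4 CPM in shMock control (-0.65, SE 0.14, edgeR adjusted p = 0.00167). ATP5MG, subunit g of the membrane part, had 61.6 and 62.0 CPM in shMock TGF-β1, against 80.9 and 89.5 CPM in shMock control (-0.46, SE 0.09, edgeR adjusted p = 0.000658). Both were far below control. ATP5MC2 (-0.39), ATP5PD (-0.33) and ATP5MC3 (-0.27) also fell, where ATP5MC2 and ATP5MC3 encode the c-ring.

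**Figure D5:**
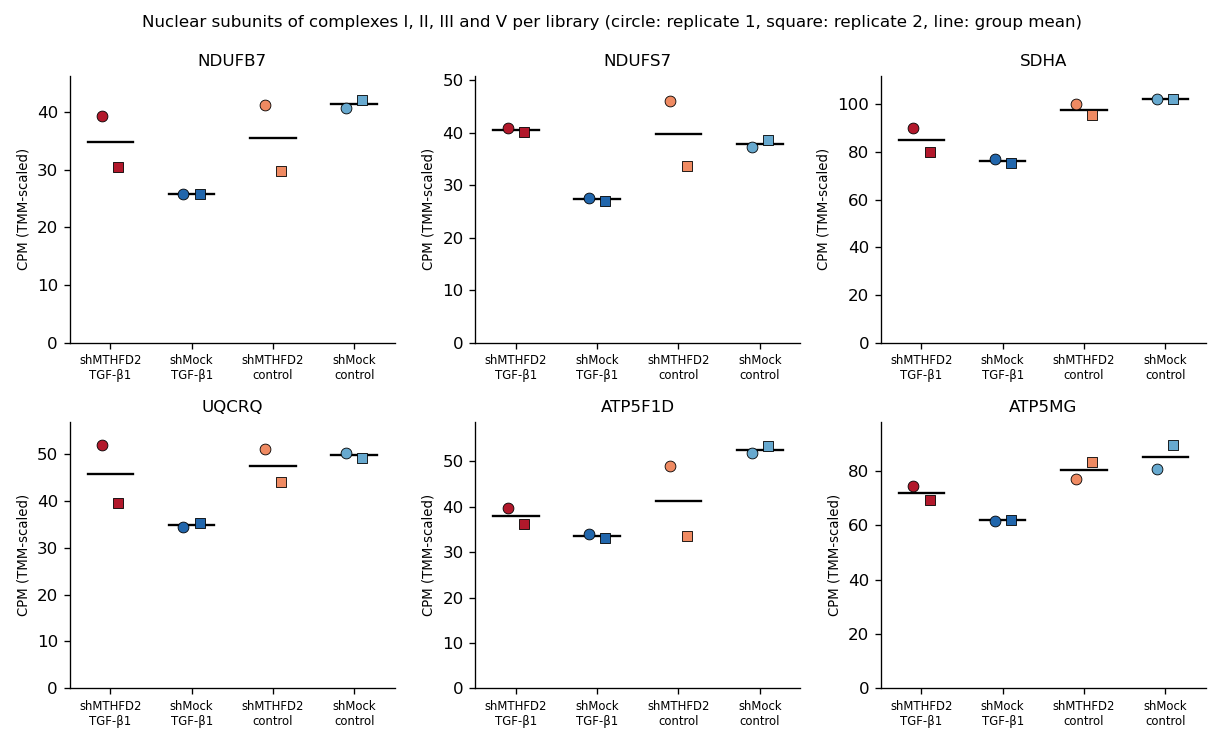
CPM of 6 nuclear subunits of complexes I, II, III and V in each library (linear axes from 0; points are libraries, lines are means of 2). In each panel the shMock TGF-β1 libraries lie below the shMock control libraries, by 0.42 to 0.68 on the log2 scale.

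The size and direction of this nuclear shift depend on how GC content and scaling are treated. Across all genes, log2 fold changes in shMock fell with GC content (Spearman -0.285 over genes). With offsets for GC content and exon length the counts were 5 lower and 10 higher, and the nuclear median was 0.04, where the median of all genes moved to 0.13. Scaling to library totals moved the median of all genes to -0.16 and gave 41 lower and 0 higher. The members NDUFB6, NDUFV2, SDHA, ATP5MC3 and ATP5MG kept their call under all 8 other settings. The count was 9 without shMock control 2. NDUFB7, NDUFV2, NDUFA13, SDHA, UQCRQ, ATP5F1D, ATP5MC2 and ATP5MG kept their call without any single library, which makes 8 of the 22 nuclear calls, whereas COX5B kept its call in 0 of the 8 fits. In shMTHFD2, the offsets gave 0 lower and 9 higher with a median of all genes of 0.11, and library totals gave 11 lower and 0 higher with a median of -0.12.

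Whether the lines respond differently was tested by the interaction, which subtracts the log2 response of shMock from that of shMTHFD2. For the 13 mitochondrial mRNAs it was negative throughout, from -1.09 to -0.66 with a median of -0.86, but edgeR called 0 of 13 (adjusted p = 0.1 to 0.244). All 13 had an unadjusted p under 0.05, DESeq2 called 0, and 0.0889% of all genes were called, 0.0519% lower and 0.0371% higher. For the 79 nuclear members the median was 0.13, with 62 positive, 0 called and 16 with an unadjusted p under 0.05 (DESeq2 called 0). Across all genes the interaction rose with GC content (Spearman 0.473 over genes). The nuclear median was 0.07 with GC and length offsets and -0.02 without shMTHFD2 control 2 and shMock control 2. MT-ND2 gave -0.996 (SE 0.21, edgeR adjusted p = 0.1), the nearest to the threshold, and NDUFB7 gave 0.66 (SE 0.21, edgeR adjusted p = 0.236), the highest nuclear value. The mitochondrial count was 12 without shMock control 1 and 11 without shMTHFD2 control 1, and without shMTHFD2 control 2 and shMock control 2 the median was -0.46 with 0 called. The comparisons share libraries, so the lower mitochondrial level with TGF-β1 in shMTHFD2 and the higher level in shMTHFD2 control are read partly from the same values.

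Many promoters of the nuclear members, but not all, carry motifs of the factors known to control respiratory genes. NRF1 and the ETS factor GABP are known as activators of many respiratory genes, and YY1 binds near the start site of many genes. RefSeq promoter entries (GRCh38.p14, 250 bases before to 50 after the start) matched 67 of the 84 nuclear members by symbol. A single entry was used per member, whereas the shares of all entries count every entry. On both strands, GCGCANGCG (NRF1) was found in 22 of 67, or 32.8%, against 7.52% of all 35116 entries. CCGGAAG (ETS) was found in 19, or 28.4%, against 10.3% of all entries. AANATGGC (YY1) was found in 22, or 32.8%, against 6.58%. At least 1 of them was in 43 members, or 64.2%, against 21.2% of all entries, and matches of different motifs overlapped in 0 members. A match is a description of letters and not a binding site.

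The 250 bases before the start are shown for COX7C, which differed most between the lines, for COX8A, which was lower in shMTHFD2 without TGF-β1, for NDUFS7, with the highest nuclear log2 fold change between the lines with TGF-β1, and for SDHA, which fell with TGF-β1 in shMock. They are written 5′ to 3′ on the gene's strand, which is the plus strand for all 4, and capitals mark complete motif matches.
COX7C (chr5:86617691-86617940): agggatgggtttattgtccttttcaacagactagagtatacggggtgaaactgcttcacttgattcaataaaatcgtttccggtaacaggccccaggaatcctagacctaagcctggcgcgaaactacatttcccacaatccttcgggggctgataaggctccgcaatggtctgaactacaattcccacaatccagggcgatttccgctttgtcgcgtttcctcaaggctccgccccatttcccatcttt
COX8A (chr11:63974370-63974619): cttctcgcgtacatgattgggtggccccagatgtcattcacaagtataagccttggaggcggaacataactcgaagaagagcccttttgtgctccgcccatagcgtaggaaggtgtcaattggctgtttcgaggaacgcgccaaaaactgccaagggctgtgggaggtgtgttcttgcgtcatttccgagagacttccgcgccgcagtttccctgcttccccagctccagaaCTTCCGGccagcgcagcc
NDUFS7 (chr19:1383657-1383906): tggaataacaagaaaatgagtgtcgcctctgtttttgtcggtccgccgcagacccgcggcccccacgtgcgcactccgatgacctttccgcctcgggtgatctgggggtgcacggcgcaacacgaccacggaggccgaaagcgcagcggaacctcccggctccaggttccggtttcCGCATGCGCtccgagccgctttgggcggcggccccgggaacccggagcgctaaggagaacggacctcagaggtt
SDHA (chr5:218070-218319): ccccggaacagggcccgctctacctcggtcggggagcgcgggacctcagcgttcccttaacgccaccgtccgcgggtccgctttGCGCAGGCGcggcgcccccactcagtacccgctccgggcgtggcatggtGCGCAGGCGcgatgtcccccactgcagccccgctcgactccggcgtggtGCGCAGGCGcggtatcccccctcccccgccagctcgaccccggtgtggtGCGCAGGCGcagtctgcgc
No match to the 3 motifs lay in the COX7C entry, which says only that these letters are not in it. COX8A held an ETS match on the minus strand that begins 18 bases before the start. A YY1 match that spans the start of COX8A is not marked. NDUFS7 held an NRF1 match 74 bases before the start and a YY1 match 18 bases after it, beyond the printed stretch. SDHA held 4 NRF1 matches, beginning 166, 117, 68 and 19 bases before the start.

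Assembly factors, which build the complexes without staying in them, were counted from lists chosen by function. With TGF-β1, the knockdown had 2 of 17 complex I assembly factors higher and 0 lower (11.8% higher, against 4.83% of all genes). They were NDUFAF3, with 27.9 and 30.2 CPM in shMTHFD2 TGF-β1, against 22.7 and 21.6 CPM in shMock TGF-β1 (log2 ratio 0.39, SE 0.11, edgeR adjusted p = 0.0335), and DMAC2 (0.38, edgeR adjusted p = 0.0415). In 8 fits that each left out a library, NDUFAF3 kept this call in 4, losing it without any library of the comparison. DMAC2 kept it in 3, losing it without shMock TGF-β1 2 and without any shMTHFD2 library. Without TGF-β1, 0 of 17 were called by edgeR, and 0 had an unadjusted p under 0.05. With TGF-β1, 5 of 17 fell in shMock, among them NDUFAF8 (-0.63) and NDUFAF3 (-0.47), and 1 of 17 fell in shMTHFD2, NDUFAF7 (-0.38). These are 29.4% in shMock, against 18.1% of all genes, and 5.88% in shMTHFD2, against 11% of all genes. The falls of NDUFAF3 and DMAC2 in shMock share the shMock TGF-β1 libraries with their calls between the lines. NDUFAF8 lost its call without shMock control 1 or shMock TGF-β1 2, and NDUFAF7 in shMTHFD2 kept its call in 3 of 8 such fits. Of 24 complex IV assembly factors 3 fell and 2 rose with TGF-β1 in shMock, and 2 fell in shMTHFD2. The shares, 12.5% lower and 8.33% higher in shMock and 8.33% lower in shMTHFD2, were below those of all genes (18.1, 17.3 and 11%). COA3, which binds newly made MT-CO1 protein, fell in both lines, by 0.58 in shMock and by 0.37 in shMTHFD2 on the log2 scale, where the call in shMTHFD2 held in 3 of 8 fits without a library. The copper chaperone SCO2 fell in the knockdown without TGF-β1 by 0.48 (edgeR adjusted p = 0.0456), the only one of the 24 called there. It is 4.17% of the list, below the 8.19% of all genes called lower. That call was kept in 1 of 8 such fits, without shMTHFD2 control 1, with log2 fold changes of -0.65 to -0.32. Among complex II, III and V assembly factors (4, 6 and 8 genes), a single one was called in any comparison, UQCC1. It fell by 0.25 with TGF-β1 in shMock and is 16.7% of the complex III list, near the 18.1% of all genes called lower. UQCC1 kept that call in 0 of 8 such fits, with log2 fold changes of -0.29 to -0.21.

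Electron carriers and substitute subunits made up a list of 8 genes. In the knockdown, HIGD2A was higher and CYCS lower with TGF-β1, and ETFDH was higher and NDUFA4L2 lower without it. Each is 12.5% of the list. Among all genes, 4.83% were higher and 8.23% lower with TGF-β1, and 3.25% higher and 8.19% lower without it. ETFDH rose by 0.525 on the log2 scale (SE 0.13, edgeR adjusted p = 0.0154), a call lost without any library of the comparison. CYCS, which encodes cytochrome c, measured 52.5 and 57.0 CPM in shMTHFD2 TGF-β1, against 75.6 and 75.5 CPM in shMock TGF-β1 (log2 ratio -0.46, SE 0.10, edgeR adjusted p = 0.00844). With TGF-β1 it rose in shMock by 0.38 over control values of 53.6 and 62.9 CPM (SE 0.10, edgeR adjusted p = 0.00967). In shMTHFD2, whose control values were 50.2 and 59.7 CPM, it gave -0.004 (SE 0.10). Its interaction was not called (-0.38, SE 0.15, edgeR adjusted p = 0.307). The difference between the lines lost its call without shMock TGF-β1 1 or shMTHFD2 TGF-β1 1, and the response in shMock lost it without shMock control 1. These CYCS calls share the shMock TGF-β1 libraries. HIGD2A, an assembly factor of supercomplexes, was higher in the knockdown with TGF-β1 by 0.43 (edgeR adjusted p = 0.0098), though not without shMTHFD2 TGF-β1 1. With TGF-β1 it also fell in shMock by 0.35 (SE 0.10, edgeR adjusted p = 0.0114), partly from the same shMock TGF-β1 values. HIGD2A averaged 39.4 CPM in shMock TGF-β1, against 53.0 in shMTHFD2 TGF-β1, 60.5 in shMTHFD2 control and 50.1 in shMock control. NDUFA4L2, a hypoxia-induced relative of NDUFA4, measured 1.02 and 1.34 CPM in shMTHFD2 control, against 3.01 and 2.47 CPM in shMock control (-1.21, SE 0.36, edgeR adjusted p = 0.0434). Its call was kept in 2 of 8 fits without a library, those without shMTHFD2 TGF-β1 1 or 2, with adjusted p up to 0.211. ETFB, a subunit of the electron transfer flavoprotein, fell with TGF-β1 in both lines, by 0.60 in shMTHFD2 and by 0.67 in shMock. With TGF-β1, 0 of the 8 were higher and 2 lower in shMTHFD2 (0 and 25%, against 12.8 and 11% of all genes). In shMock 1 was higher and 2 were lower (12.5 and 25%, against 17.3 and 18.1% of all genes).

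Genes for the synthesis, processing and decay of mitochondrial RNA were read beside the mitochondrial mRNAs, with 22 of 23 listed symbols in the file. PNPT1, the mitochondrial polynucleotide phosphorylase that degrades RNA and is induced by interferon, measured 46.5 and 42.9 CPM in shMTHFD2 TGF-β1, against 67.7 and 75.2 CPM in shMock TGF-β1. Without TGF-β1 it measured 43.9 and 43.6 CPM in shMTHFD2 control, against 82.2 and 76.9 CPM in shMock control. The lines did not overlap, and PNPT1 fell by 0.68 with TGF-β1 (SE 0.09, edgeR adjusted p = 0.000206) and by 0.86 without it (SE 0.09, edgeR adjusted p = 2.16e-05). TFAM, which packages mitochondrial DNA and activates its transcription, had 11.1 and 10.5 CPM in shMTHFD2 control, against 18.4 and 15.1 CPM in shMock control (-0.63, SE 0.15, edgeR adjusted p = 0.0157), a call lost without shMTHFD2 control 1, shMTHFD2 control 2 or shMock control 1. LRPPRC, which stabilises mitochondrial mRNAs, rose without TGF-β1 by 0.27 (SE 0.08, edgeR adjusted p = 0.0445), a call lost without any library of the comparison. POLRMT, the mitochondrial RNA polymerase, rose in the knockdown with TGF-β1 by 0.54 (edgeR adjusted p = 0.0358) and fell with TGF-β1 in shMock by 0.47 (edgeR adjusted p = 0.0282). The first of these calls was lost without shMock TGF-β1 1 or shMTHFD2 TGF-β1 1, and the second without shMock TGF-β1 1 or shMock control 2. Both calls use the shMock TGF-β1 libraries. MTERF2 fell with TGF-β1 in both lines, by 0.91 in shMTHFD2 and by 1.02 in shMock. In all, 1 was higher and 1 lower in the knockdown with TGF-β1, 1 higher and 2 lower without it, 1 lower with TGF-β1 in shMTHFD2 and 3 lower in shMock. The shares over the 22 genes were near or below those of all genes, with 4.55% higher and 4.55% lower against 4.83 and 8.23%, and 4.55% higher and 9.09% lower against 3.25 and 8.19%. With TGF-β1 they were 4.55% lower against 11% in shMTHFD2, and 13.6% lower against 18.1% in shMock.

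Of 10 regulators of mitochondrial biogenesis 9 were tested. The coactivator PPARGC1A had 2.04 and 2.999 CPM in shMTHFD2 TGF-β1, against 1.07 and 0.287 CPM in shMock TGF-β1, and was the only one called between the lines (log2 fold change 1.87, SE 0.49, edgeR adjusted p = 0.0207). It was 3.12 without shMock TGF-β1 1 and lost its call without shMock TGF-β1 2 or shMTHFD2 TGF-β1 2, with values down to 1.24. This 1 call is 11.1% of the 9 genes tested, against 4.83% of all genes called higher in this comparison. With TGF-β1, 2 of the 9 were higher and 1 lower in shMTHFD2 (22.2 and 11.1%, against 12.8 and 11% of all genes). In shMock 1 was higher and 2 were lower (11.1 and 22.2%, against 17.3 and 18.1% of all genes). In a list this short, such shares rest on 1 or 2 genes. The related PPRC1 rose with TGF-β1 in both lines, by 0.51 in shMTHFD2 and by 0.55 in shMock, with edgeR adjusted p = 0.0012 and 0.000461. ESRRG, a nuclear receptor, fell with TGF-β1 by 2.04 in shMTHFD2 and by 1.54 in shMock. The change in shMock was -2.39 to -1.01 without single libraries and was not called without shMock TGF-β1 2. GABPB1, a subunit of GABP, rose by 0.46 in shMTHFD2, a call lost without any library of that comparison. PPARGC1B fell by 1.22 in shMock and lost its call without shMock control 1, shMock control 2 or shMock TGF-β1 2.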

How the data were processed

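RNA of 8 MRC5 libraries was sequenced after an mRNA preparation, per the labels' protocols. The deposited table holds whole-number read counts per gene ID, although its name speaks of FPKM, and the authors had not normalised these counts. STAR 2.7.1a, DESeq2 1.32.0 and GRCh38 are named in the submitters' processing notes; the counting tool, its annotation and its strand setting were not given in the sources used. Names, coordinates and exon lengths come from GENCODE 29. Of the 60666 IDs, 13493 genes with a mean CPM of at least 1 were tested.

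All 8 libraries entered 1 fit of edgeR 4.0.16 (R 4.3.3, TMM scaling, quasi-likelihood test, 4 residual degrees of freedom), with p-values adjusted by Benjamini-Hochberg over all genes and a threshold of 0.05. Samples were grouped by title. Sums, shares and medians describe the members and were not tested. A count of 0 allows up to 3 counts, and such limits cover counting error only. Of the tested nuclear members 43 of 79 share exon bases with another gene, 32 of them on the opposite strand, as do 5 of 13 mitochondrial ones.

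The members and lists were chosen with earlier results of these data known. Named were the mitochondrial mRNAs, the SDH genes and isoform families, and per comparison and complex the 2 highest and 2 lowest called nuclear members, or the most abundant where none was called; other called members were named after their values were seen. Alternatives were DESeq2 1.42.0, median-of-ratios factors, library totals, scaling on nuclear genes, no filter, filterByExpr, a replicate block, GC and length offsets, and leaving out each library. Leaving out shMTHFD2 control 2 and shMock control 2 together was chosen after seeing the data.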

Additional observations from a re-analysis of the deposited data

Results flagged for a closer look

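For 13 mitochondrial mRNAs, the difference between shMTHFD2 and shMock pointed one way with TGF-β1 and the other way without it, in every pairing of libraries. Each was lower in shMTHFD2 with TGF-β1 (log2 fold changes -0.43 to -0.21) and higher without it (0.45 to 0.69). The difference itself was tested by the interaction, which edgeR did not call for any of the 13 (adjusted p = 0.1 to 0.244, unadjusted p under 0.05 for all 13). The same was seen for 3 nuclear members, higher in shMTHFD2 with TGF-β1 and lower without it. How many of all genes separate in this way was not counted, so neither number can be set against a share of all genes. NDUFB6 gave an interaction of 0.61 (edgeR adjusted p = 0.247), SDHA 0.22 (0.463) and ATP5F1D 0.53 (0.297). Groups of 2 libraries allow no check for a single library far from its group.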

How the results depend on the processing

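Of 23 calls on mitochondrial mRNAs and 36 on nuclear members over the 5 tests, DESeq2 kept 11 and 29, filterByExpr 21 and 33, GC and length offsets 19 and 14, library totals 23 and 32, and each of median-of-ratios factors, no filter and nuclear scaling 23 and 33. No shared deviation of same-numbered libraries was visible, as replicate differences correlated by -0.02 to 0.069 between groups. These values cannot settle whether equal numbers mark a shared culture, and the labels do not say. The fit with a replicate block kept 23 and 34 of the calls and 10 higher mitochondrial mRNAs without TGF-β1. Under GC and length offsets the TGF-β1 responses in shMock turned to 0.132 for CYC1, 0.051 for COX5B, 0.098 for COX8A and 0.055 for SCO2 (log2). The cause was not tested here or for the counts that follow.

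With TGF-β1, the mitochondrial mRNAs called lower in shMTHFD2 were 11 without the filter, 1 with offsets, 8 without shMTHFD2 control 2 and shMock control 2, and 0 to 3 without single libraries. The nuclear members called higher were 2 with DESeq2, 9 with library totals, 2 with offsets and 1 to 4 without single libraries. The ratio of mitochondrial shares was 0.867, and 0.815 from mean CPM. Without TGF-β1, the mitochondrial mRNAs called higher were 0 with DESeq2, 0 without those control libraries, and 0 to 13 without single libraries, and the nuclear members called lower 2 and 2 to 4 under the last pair of settings.

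For TGF-β1 in shMock, the mitochondrial mRNAs called higher were 4 without the filter, 1 with offsets, and 0 to 10 without single libraries. Nuclear members called higher were 2 with each of DESeq2, median-of-ratios factors, nuclear scaling and no filter, 0 with library totals, 10 with offsets, and 0 to 2 without single libraries. Those called lower were 41 with library totals, 5 with offsets, 9 without those control libraries, and 9 to 22 without single libraries. For TGF-β1 in shMTHFD2, nuclear members called higher were 0 with library totals, 9 with offsets and 0 to 1 without single libraries. Those called lower were 1 with DESeq2, 11 with library totals, 0 with offsets, 0 without those control libraries, and 0 to 2 without single libraries. For the interaction, 13 mitochondrial mRNAs were called lower without the filter and 0 to 12 without single libraries, and 1 nuclear member higher without the filter and 0 to 3 without single libraries. Where a library is left out, the lone library of its group is assumed to vary like the others. At this depth 3 counts are 0.135 to 0.172 CPM, so depth limits COX6B2, COX8C and the forms at 0 counts.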
